A study of Mus musculus with 7 samples.

Results

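The cells described here are bone marrow cells rich in transcripts of the MHC class II pathway. They were picked from single-cell RNA libraries by a rule on UMIs, the molecular tags that count single transcripts. To be kept, a cell needed 1000 UMIs or more and 500 genes or more, with no more than 10% of its UMIs from mitochondrial genes. A kept cell was a member when it held at least 5 UMIs of Cd74, at least 5 UMIs of H2-Aa, H2-Ab1 and H2-Eb1 together, and 0 UMIs of the B cell genes Cd79a and Cd79b. The rule found 224 members among 24430 kept cells (0.917%), of 36465 barcodes in all. Their working name was dendritic-monocytic cells. The data went against that name for most of them, so they are called MHC class II high cells.

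The libraries came from LSK cells, bone marrow cells sorted as negative for lineage markers and positive for Sca-1 and cKit, which hold the blood stem and multipotent progenitor cells. Of 7 libraries, 3 were labelled B4galt1 KO, with the genotype 129S1/C57Bl/6, B4-/-, a full knockout that is not limited to blood cells. The other 4 were labelled WT, with the genotype 129S1/C57Bl/6. Age, sex and the number of mice behind a library are not given in the labels, so p-values measure the spread between libraries, which may be technical.

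MHC class II molecules carry peptides from outside the cell to the surface, where helper T cells read them. H2-Aa, H2-Ab1 and H2-Eb1 encode chains of the surface molecule, and Cd74 encodes the invariant chain that guards the groove until H2-DM loads the peptide. Ciita, the master coactivator of the pathway, acts through factors bound to the X and Y boxes of class II promoters. Dendritic cells, B cells and activated macrophages are the best known class II cells of the marrow, and blood stem cells have been reported to carry the molecule too. Lyz2, a lysozyme, marks monocytes, macrophages and granulocytes.

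The promoters show what these genes share. The X box was searched as GNAAC and the Y box as GATTGG, 15 to 45 bases after it on the same strand. Both were chosen with the sequences in view. RefSeq promoter windows (GRCm38.p6, 250 bases before to 50 after the start) were at hand for 8 class II genes, and 6 of them held the pair: H2-Aa, H2-Eb1, H2-Eb2, H2-DMb1, H2-Oa and H2-Ob. The pair stood on either strand in 1.71% of all 32851 windows, and GATTGG alone in 16.1%. The gap between the boxes was 27 bases in H2-Aa and H2-DMb1 and 26 bases in H2-Eb1. A match is a description of the letters and not a measured binding site. The 150 bases before the start are shown for a rule gene of each chain type, with the X and Y letters in capitals. The H2-Aa stretch is chr17:34287824-34287973 on the minus strand, and the H2-Eb1 stretch is chr17:34305717-34305866 on the plus strand.
H2-Aa: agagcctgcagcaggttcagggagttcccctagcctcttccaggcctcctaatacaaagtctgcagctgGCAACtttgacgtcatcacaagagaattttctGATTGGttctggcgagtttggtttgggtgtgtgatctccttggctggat
H2-Eb1: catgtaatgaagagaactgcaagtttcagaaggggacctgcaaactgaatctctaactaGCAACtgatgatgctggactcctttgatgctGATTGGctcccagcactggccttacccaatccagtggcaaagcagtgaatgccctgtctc

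One property of the libraries bears on every result. By the opening 6 bases of their cell barcodes, the libraries formed 2 sets: list B (knockout replicate 3 and WT replicate 4), with 480 opening sequences in common, and list A (the other 5), with 900 to 958 per library. Of the list B barcodes 96.2% and 98.3% were kept, against 32.4% to 49.9% in list A. Kept cells had a median of 8046 to 11083.5 UMIs by library. List B held 194 of the 224 members (86.6%) and list A held 30. Levels are therefore given within lists, in CPM, a gene's UMIs scaled to all UMIs of the same cells. No barcode of a member was found among the members of another library. The targeted gene was checked in each library. B4galt1 (chromosome 4, 40804602 to 40854005, minus strand) had 1, 0 and 6 UMIs in the members of the knockout-labelled libraries and 6, 3, 8 and 60 in those of the WT-labelled ones. In CPM that was 30.6, 0 and 14.4 against 76.2, 78.3, 73.6 and 38.2, so the labels did not overlap in the members, on few UMIs that were below the count filter of the test. The remaining cells had 51.3, 55.8 and 27.5 against 56.3, 69.1, 56.6 and 34.8, where knockout replicates 1 and 2 lay above WT replicate 4. Libraries are therefore named by their labels only. Which part of the gene was deleted is not stated in the labels. The 3′ tags of this assay check the label only where they fall inside it.

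The members spanned a wide range of class II levels. Cd74 ran from 5 to 686 UMIs per cell with a median of 9, and the 3 class II genes together from 5 to 841, also with a median of 9. Just inside the rule, 32 members had exactly 5 Cd74 UMIs and 37 had exactly 5 class II UMIs. Just outside, 45 cells missed it with 4 Cd74 UMIs and 31 with 4 class II UMIs. The Cd79 condition removed another 100 cells, 95 of them in list B, and 73 of the 100 held a single Cd79 UMI. A member held 2668 to 35152 UMIs, with a median of 8035.

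Free RNA was checked in cells that should lack the pathway. Of 1148 kept cells with at least 10 UMIs of Elane, a neutrophil elastase gene, 0 passed the rule, which allows a share of up to 0.261%. Of 201 cells with at least 10 UMIs of Pf4, a platelet gene, 0 passed, which allows up to 1.49%. Both bounds pool the libraries. Of the Elane-rich cells 620 were in knockout replicate 1, against 178 in knockout replicate 3 and 134 in WT replicate 4. The latter libraries held 126 and 65 of the Pf4-rich cells. Neither bound covers the list B libraries taken alone, where most members lay. Elane-rich and Pf4-rich cells had median depths above those of all kept cells of their library. At least 1 Cd74 UMI was found in 8.96% of Elane-rich and 16.9% of Pf4-rich cells of WT replicate 4, against 23.7% of the remaining cells there. That library was the highest. The others had 0% to 5.06% of Elane-rich cells with Cd74, and knockout replicate 3 had 3.17% of Pf4-rich ones. A single Cd74 UMI is thus not read as expression, and shares of cells with 1 UMI of a gene are given beside those in cells without class II transcripts.

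**Figure D1:**
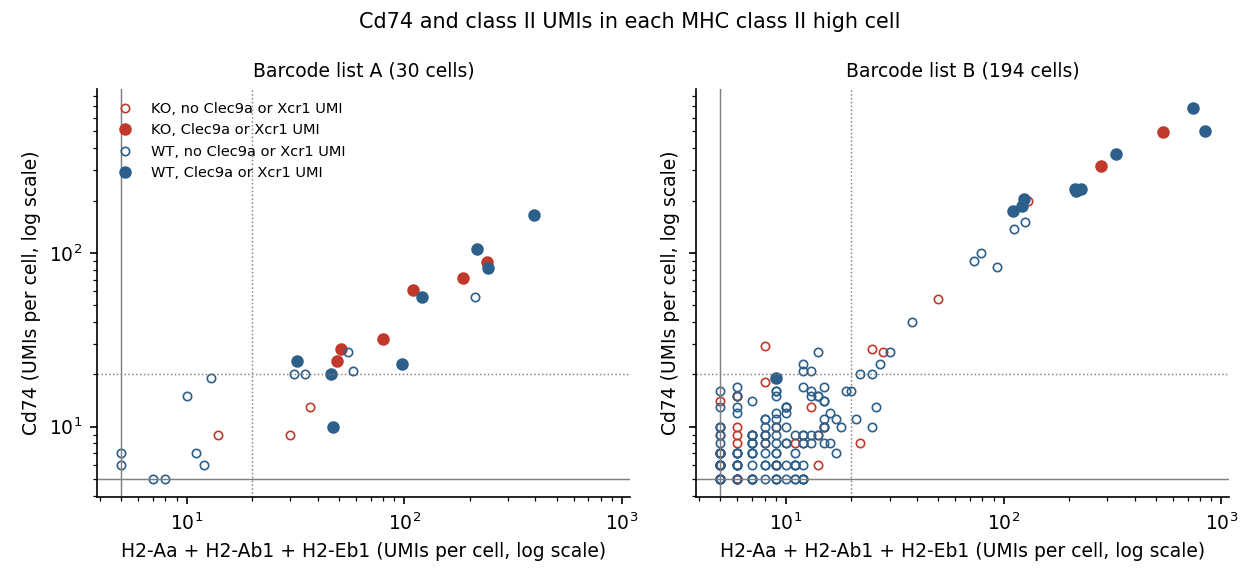
Each point is 1 member, with its H2-Aa, H2-Ab1 and H2-Eb1 UMIs together on the x axis and its Cd74 UMIs on the y axis, both on log scales. Solid lines mark 5 UMIs and dotted lines 20, red is knockout-labelled, blue is WT-labelled, and filled points have a UMI of Clec9a or Xcr1. List B crowds near the 5 UMI lines, and 24 of the 26 filled points lie at 20 UMIs or more of both.

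Against the remaining kept cells, 0.505% of 6925 genes outside the rule were at least 2-fold higher in the members of both list B libraries and 0.144% lower. The rule used that contrast, and nothing is read from the shares. The marker genes used by the rule are given as a description. H2-Aa (ENSMUSG00000036594, chromosome 17, 34282744 to 34287823) stood at 2511, 3764 and 1268 CPM in the members of knockout replicates 1, 2 and 3 and at 4430, 1488, 2752 and 1109 in those of WT replicates 1 to 4. H2-Ab1 (ENSMUSG00000073421, chromosome 17, 34257689 to 34269419) stood at 1501, 3779 and 1249 against 3427, 914, 2099 and 1215. H2-Eb1 (ENSMUSG00000060586, chromosome 17, 34305867 to 34316674) stood at 919, 1904 and 684 against 2386, 626, 1905 and 731. These 3 genes were lowest in WT replicate 2 and both list B libraries, and the labels overlapped in each.

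Cd74 (ENSMUSG00000024610) stood at 1930, 4076 and 3486 CPM in the members of the knockout-labelled libraries and at 4176, 1227, 2982 and 3003 in the WT-labelled ones. Per class II UMI, the members held 0.391 to 0.441 Cd74 UMIs in the 5 list A libraries and 0.983 and 1.09 in list B. Both labels occur on either side of that gap. H2-Ab1 made up 30.2% to 40.0% of the class II UMIs of members, below its 44.0% to 60.9% in the remaining cells of the same libraries.

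Lyz2, the marker outside the rule (ENSMUSG00000069516, chromosome 10), did not follow the class II genes. Its members' CPM were 61.3, 223 and 246 in the knockout-labelled libraries and 3161, 26.1, 1684 and 297 in the WT-labelled ones. The remaining cells held 120 to 268 CPM. Members lay above the remaining cells in 5 of 7 libraries, but only WT replicates 1 and 3 did so by several fold. There, 4 of the 9 members of WT replicate 1 together held 238 Lyz2 UMIs, and 1 cell held 126 of the 183 of WT replicate 3.

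The share of kept cells that were members is the first comparison of the labels. It was 0.130%, 0.290% and 0.642% in knockout replicates 1, 2 and 3 (4, 5 and 44 cells) and 0.723%, 0.256%, 0.600% and 1.69% in WT replicates 1 to 4 (9, 3, 9 and 150 cells). Exact 95% binomial intervals, which cover counting error only, ran from 0.0355 to 0.333% in knockout replicate 1 and from 0.0528 to 0.746% in WT replicate 2, and from 1.43 to 1.98% in WT replicate 4. The means were 0.354 ± 0.262% (SD, n = 3) and 0.818 ± 0.616% (SD, n = 4). The labels overlapped, and the difference of -0.464 percentage points had an exact permutation p of 0.286 (two-sided, 35 splits, smallest possible 0.0286).

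Within list A alone the difference was -0.316 points (exact permutation p = 0.3, smallest possible 0.1). Within list B, WT replicate 4 had 2.64 times the share of knockout replicate 3, with 1 library per label and so no test. With every cell thinned to 3000 UMIs, which left out 334 knockout-labelled and 384 WT-labelled cells, the shares fell to 0.162 ± 0.0940% (SD, n = 3) and 0.399 ± 0.218% (SD, n = 4), and the exact permutation p was 0.143. Without WT replicate 4 the difference shrank to -0.173 points (exact permutation p = 0.5).

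**Figure D2:**
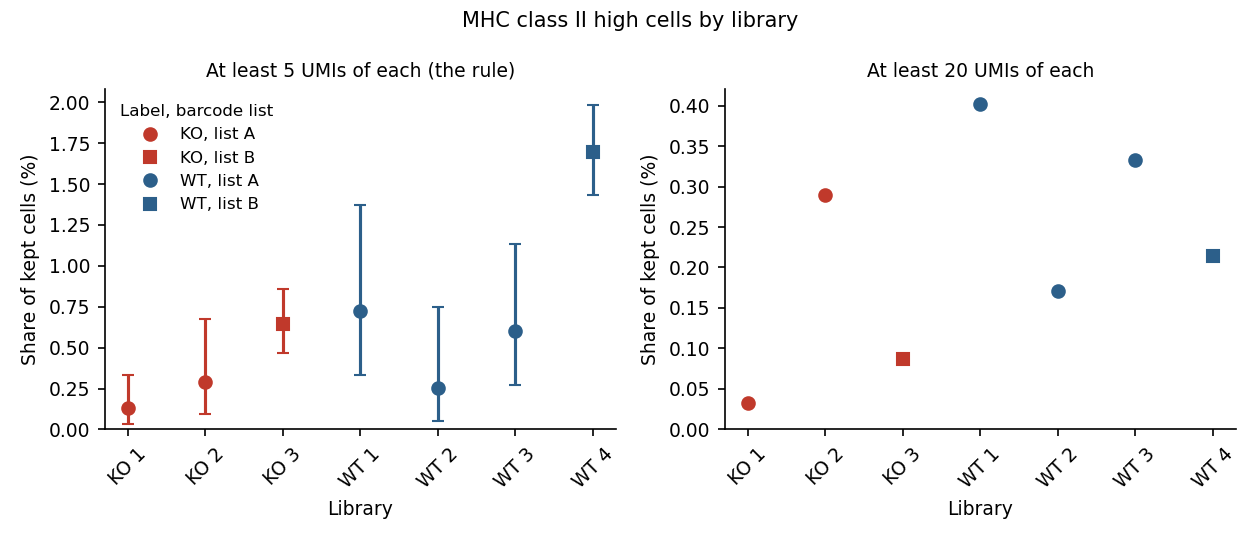
The y axis is the percentage of kept cells that pass, for the rule (left, with exact 95% binomial intervals) and for at least 20 UMIs of Cd74 and of the class II genes (right), by library on the x axis. Red is knockout-labelled, blue WT-labelled, circles list A and squares list B. WT replicate 4 is highest on the left at 1.69%, and it lies among the other WT-labelled libraries on the right at 0.214%.

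The members fell into unlike cells when they were ordered by the smaller of their Cd74 and class II UMIs. This grouping was made after the values had been seen and is a description only. There were 43 strong cells, with at least 20 UMIs of both, and 181 weaker ones with 5 to 19. Strong cells made up 18 of the 30 list A members (60.0%) and 25 of the 194 in list B (12.9%). By library they numbered 1, 5 and 6 under the knockout label and 5, 2, 5 and 19 under the WT label. Their share of kept cells was 0.137 ± 0.136% (SD, n = 3) against 0.280 ± 0.106% (SD, n = 4), and 2 WT-labelled libraries lay below the highest knockout-labelled one (difference -0.143 points, exact permutation p = 0.2). Strong cells held a median of 13362.5 UMIs in list A and 11252 in list B, deeper than cells with no UMI of these genes (7974 and 8032), and the part of depth in the grouping was not tested.

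Strong cells carried many, but not all, of the listed genes of classical dendritic cells. The 19 genes of that list summed to 14476 CPM in list A and 13065 in list B. In cells with no UMI of Cd74, the class II genes or Cd79, the sums were 1000 and 1052. Cst3 alone made up 9304 and 10140 CPM of the sums in strong cells. Of the 10 genes of the dendritic list with at least 20 CPM, 8 were at least 2-fold higher in both barcode lists. None was 2-fold lower, and the median log2 ratio was 3.86. The log2 ratios here are of CPM plus 10. Over all 6500 genes so compared, 349 (5.37%) were at least 2-fold higher in both lists and 189 (2.91%) lower, with a median of -0.14. The filter on low values took a gene in through either group of cells, so a gene absent from one of them could pass only by differing. This limit and the shares of 5.37% and 2.91% apply to each gene list counted in strong cells below.

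Cst3, which encodes the protease inhibitor cystatin C and is abundant in dendritic cells, stood at 9304 CPM in list A strong cells and 10140.0 in list B, against 331 and 375 in cells with none. Id2, an inhibitor of E proteins needed for dendritic cell development, stood at 1084 and 967 against 18.9 and 17.8. Naaa, a lysosomal amidase marking conventional dendritic cells, stood at 816 and 487 against 7.83 and 4.69. Cst3 and Id2 were at similar levels in both lists, while Naaa was higher in list A. Other genes of the list did not rise in this way. Flt3 stood at 229 and 181 CPM against 266 and 267 in cells with none. Sirpa stood at 51.8 and 3.29 against 37.0 and 13.7. Irf4, Itgax, Itgae, Clec10a, Ccr7 and Fscn1 each had at most 6 UMIs in the strong cells of either list, and Mgl2 had 0.

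Irf8, a transcription factor of the dendritic and monocytic lines, stood at 1692 and 1474 CPM in strong cells. At least 2 UMIs of it were found in 17 of 18 strong cells of list A and 17 of 25 of list B (94.4% and 68.0%), against 17.1% and 9.12% of cells with none. Batf3, a partner of Irf8 in the first type of conventional dendritic cells, stood at 160 and 138 CPM. The surface receptors that define that type, Clec9a and Xcr1, gave at least 2 UMIs in 9 of 18 and 5 of 25 strong cells (50% and 20%, exact 95% binomial intervals 26.0 to 74.0% and 6.83 to 40.7%), against 3 of 4308 and 0 of 6205 cells with none. At least 1 UMI was found in 13 of 18 and 11 of 25 (72.2% and 44.0%), against 0.232% and 0.306% of cells with none and 2 of the 181 weaker members. Cells with none were shallower than strong cells, as given above. Cd209a, a lectin of monocyte-derived and second-type dendritic cells, gave at least 1 UMI in 5 strong cells, all in list B, and at least 2 in 4 of them, against 1 UMI in 1 of the 6205 list B cells with none. Siglech, which defines plasmacytoid dendritic cells, was found in 1 of the 224 members.

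Other parts of the class II pathway were higher in the strong cells as well. Of the 15 pathway genes outside the rule, 11 reached 20 CPM. Of these, 10 were at least 2-fold higher in both lists (5.37% of all genes compared), with a median log2 ratio of 2.59. Genes low in cells with none, such as Ciita, entered only through the strong cells. H2-DMa, Ctss and H2-Ob reached 20 CPM in cells with none of both lists as well. H2-DMa stood at 410 and 737 against 96.3 and 175, and Ctss at 237 and 378 against 23.05 and 25.5. H2-Ob stood at 104 and 75.7 against 22.4 and 37.2. Ciita stood at 285 CPM in list A and 109 in list B, against 1.75 and 1.86 in cells with none. H2-DMb1, a chain of the peptide loader, stood at 324 and 681 against 15.4 and 39.8. Ifi30, a lysosomal thiol reductase, stood at 427 and 224 against 18.96 and 5.69. Class I genes, which display peptides from inside the cell, differed less: of 11 measured, 2 were at least 2-fold higher in both lists and the median log2 ratio was 0.73. B2m, the light chain of class I, stood at 1071 and 3260 CPM in strong cells against 1222 and 3287.

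The leading genes of strong cells went beyond the lists. Plbd1, a phospholipase B-like gene, had the largest mean log2 ratio of all genes with at least 100 CPM, at 699 and 609 CPM against 6.02 and 0.26 in cells with none. Aif1, an actin-binding protein of myeloid cells, stood at 298 and 332 against 1.16 and 0.44, and Mpeg1, a pore-forming protein of phagocytes, at 591 and 234 against 19.8 and 3.94. Psap, the precursor of the saposins, stood at 2012 and 2372 against 149.7 and 193. These genes were chosen after their values were seen, and all 4 were higher in the strong cells of both lists.

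Among transcription factors, Zbtb46, a factor of classical dendritic cells, stood at 125 and 26.3 CPM in strong cells against 1.46 and 1.36. Klf4, a factor of monocytes and some dendritic cells, stood at 315 and 42.8 against 71.1 and 3.73. Spi1, which encodes the myeloid master factor PU.1, stood at 242 and 355 against 108 and 177. Of 11 factors with at least 20 CPM, 5 were at least 2-fold higher in both lists and none was 2-fold lower, and the median log2 ratio was 1.39. Tcf4, the factor that sets the plasmacytoid fate, was not among them, at 134 and 145 CPM against 306 and 155. Of 6 plasmacytoid genes, 2 were 2-fold higher in both lists, Irf8 among them.

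Strong cells held fewer stem and granule transcripts. Of 9 stem and progenitor genes, 3 were at least 2-fold lower in both lists and 1 higher, with a median log2 ratio of -1.37. Cd34 stood at 38.9 and 132 CPM against 288 and 388. Mecom, at 134 and 155 CPM against 644 and 257, was 2-fold lower in list A only. At least 2 UMIs of Kit or Cd34 were found in 10 of 18 strong cells of list A and 11 of 25 of list B. That was 55.6% and 44.0%, against 79.6% and 83.7% of cells with none. All 5 granule genes with at least 20 CPM were at least 2-fold lower in both lists. Of 10 cell cycle genes 3 were 2-fold higher and none 2-fold lower, and Ube2c, a mitotic ubiquitin enzyme, stood at 350 and 326 against 107 and 136. The DNA replication genes Pcna, Mcm5 and Mcm6 were lower in both lists, and Tyms in list B only. Mcm6 stood at 82.0 and 109 against 170 and 190. The macrophage list had no gene at 20 CPM, and its summed level was 12.95 and 19.7 CPM in strong cells beside 15.1 and 10.7 in cells with none.

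**Figure D3:**
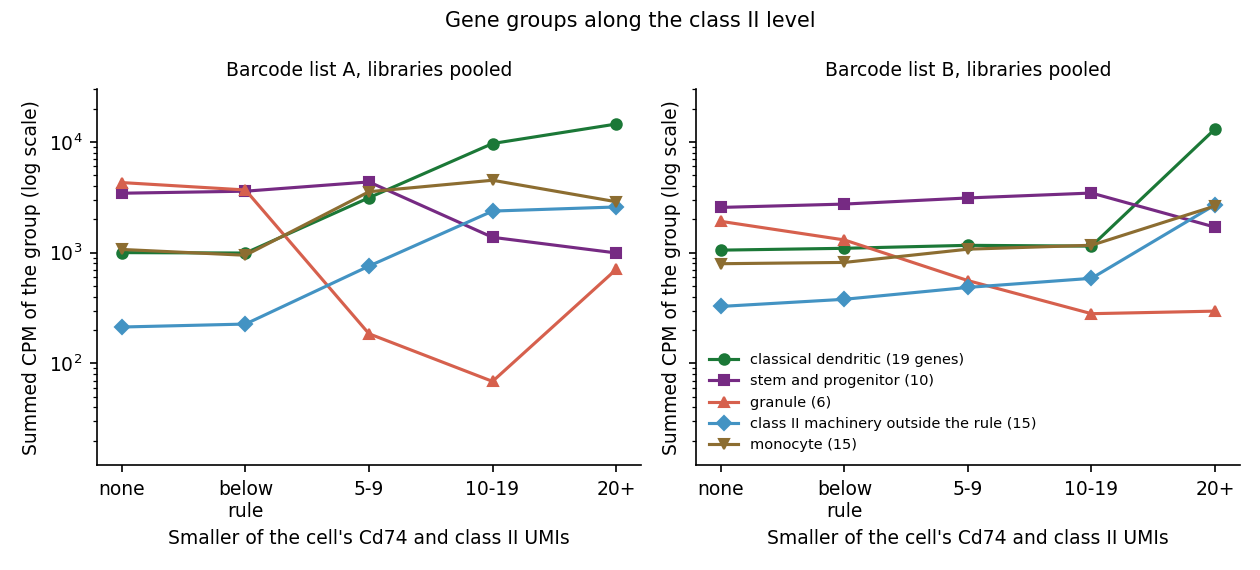
The y axis (log scale) is the summed CPM of 5 gene lists, and the x axis orders cells by the smaller of their Cd74 and class II UMIs, from none over those below the rule to the members, for list A (left) and list B (right). In list B the classical dendritic sum stays at 1052 to 1163 CPM up to 19 UMIs. It is 13065 at 20 or more, of which Cst3 makes up 10140.

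Weaker cells of list B, 169 of its 194 members, held the dendritic genes at about the level of cells with none. Their 19 classical dendritic genes summed to 1163 CPM at 5 to 9 UMIs and 1144 at 10 to 19, beside 1052 in cells with none. Cst3 stood at 373 CPM against 375 in cells with none, Id2 at 16.01 against 17.8, and Irf8 at 29.1 against 60.7. Xcr1 had 1.19 CPM, and no UMI of Clec9a or Batf3 was counted in the 169 cells. Of the pathway genes, H2-DMb1 stood at 90.1 CPM against 39.8, and Ciita at 3.56 against 1.86.

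The genes leading in those weaker cells included several known from stem cells, beside lymphoid and interferon-induced ones. Compared with cells with none within each list B library, Ly6a, which encodes the stem cell antigen Sca-1, had the largest mean log2 ratio among genes of at least 100 CPM. It stood at 131 CPM against 44.7 in knockout replicate 3 and at 110 against 38.6 in WT replicate 4. Mecom, a transcription factor of long-term stem cells, stood at 559 against 246 and at 478 against 269. Hlf, another stem cell factor, stood at 250 against 151 and at 350 against 216. Each of these 3 was higher in both libraries, and each was lower again in the strong cells of both than in the weaker cells. Kit and Cd34, the stem and progenitor surface genes, were not higher, at 130 and 347 CPM in the weaker cells of list B against 144 and 388 in cells with none.

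Other leading genes of the weaker cells were Ltb, a lymphotoxin chain, at 431 against 134 CPM in knockout replicate 3 and 308 against 156 in WT replicate 4, and Ifitm1 and Ifitm3, interferon-induced membrane proteins. Ifitm3 stood at 1044 against 617 and at 922 against 554. Procr, a receptor on stem cells, stood at 72.4 against 20.8 and at 64.1 against 35.8. The 10 genes of the stem and progenitor list summed to 3115 and 3449 CPM in the 2 weaker levels of list B, against 2558 in cells with none and 1698 in strong cells. Of the 10, Ly6a alone was at least 2-fold higher in both libraries and none was 2-fold lower, where the background was 0.0868% of 6916 genes higher and 0.159% lower. At least 2 UMIs of Kit or Cd34 were present in 123 of the 169 weaker cells (72.8%, exact 95% interval 65.4 to 79.3%), below the 83.7% of cells with none.

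Genes of the granulocyte line were lower in the same weaker cells. Elane stood at 16.7 against 241 CPM in knockout replicate 3 and at 10.6 against 358 in WT replicate 4. Mpo, the myeloperoxidase gene, stood at 223 against 894 and at 198 against 609, and Ctsg, cathepsin G, at 69.6 against 349 and at 36.2 against 211. Of 5 granule genes with at least 20 CPM, 4 were at least 2-fold lower in both libraries, where the background was 0.159% of 6916 genes. Car1, a carbonic anhydrase of erythroid progenitors, stood at 2.78 against 56.5 and at 3.77 against 223. Pf4 stood at 55.7 against 494 and at 60.3 against 107. Of 4 erythroid genes 3 were 2-fold lower in both libraries, but Hbb-bt, a hemoglobin chain gene, went the other way. Over list B it stood at 89.4 CPM at 5 to 9 UMIs and 208 at 10 to 19, against 53.0 in cells with none. The erythroid list summed to 99.4 and 277 CPM at these levels, against 266. Of the basophil and mast cell genes 3 of 4 were 2-fold lower in both libraries, among them Mcpt8, a basophil protease, at 4.74 CPM against 75.9 over list B. The same background of 0.159% applies. Here too the filter on low values took a gene in through either group of cells. Genes near 0 in the weaker cells, such as Mcpt8, entered only through cells with none and could pass only by being lower. This limit applies to each gene list counted in the weaker cells.

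**Figure D4:**
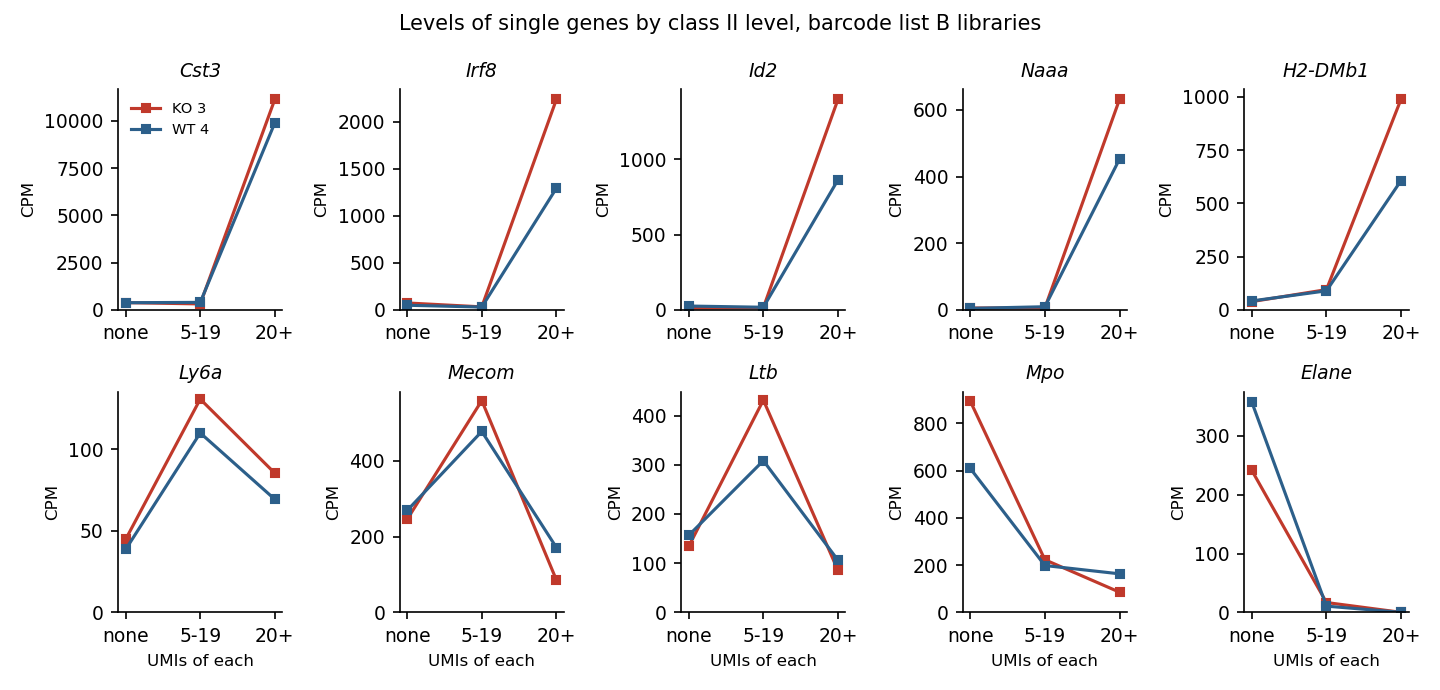
Each panel gives the CPM (y axis, from 0) of 1 gene in cells with no Cd74, class II or Cd79 UMI, in members with 5 to 19 UMIs and in members with 20 or more (x axis), for knockout replicate 3 (red; 38 and 6 member cells) and WT replicate 4 (blue; 131 and 19). Cst3, Irf8, Id2, Naaa and H2-DMb1 are highest at 20 or more, Ly6a, Mecom and Ltb at 5 to 19, and Mpo and Elane in cells with none.

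The 12 weaker cells of list A were too few for this comparison and looked different from those of list B. Their classical dendritic genes summed to 3129 CPM at 5 to 9 UMIs and 9654 at 10 to 19, and Cst3 stood at 3128 CPM in the 12 cells together. Naaa was found in 6 of the 12 and Id2 in 7. Their median depths were 7015 and 7165.5 UMIs at these levels, against 8023 and 7307 in list B.

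The monocyte genes did not all go one way. Of the 15 genes of that list, 9 reached 20 CPM in strong cells or cells with none, and 5 were at least 2-fold higher in strong cells of both lists. Lgals3, a lectin of macrophages and dendritic cells, stood at 505 and 711 CPM against 22.8 and 3.94, and Ms4a6c at 307 and 487 against 79.1 and 35.9. Ccr2, the chemokine receptor that leads monocytes out of the marrow, stood at 622 and 388 against 93.1 and 49.1, and S100a4, a calcium-binding protein, at 216 and 240 against 29.5 and 17.2. Ly6c2 and F13a1 were higher in strong cells of list B but not 2-fold higher in list A: Ly6c2 stood at 82.0 and 42.8 CPM in strong cells against 131 and 24.0, and F13a1, the factor XIII gene, at 203 and 23.03 against 186 and 11.9. The list B values of strong cells rest on 13 UMIs of Ly6c2 and 7 of F13a1. Of the 47 F13a1 UMIs in list A strong cells, 23 came from 1 cell of knockout replicate 2 and 20 from 1 of WT replicate 3. Csf1r, the receptor of the macrophage growth factor, gave at least 2 UMIs in 1 of 224 members (0.446%), against 0.425% to 9.42% of the remaining cells by library. The complement genes C1qa, C1qb and C1qc, which define macrophages, gave 3 UMIs in 0 of 224 members, with an exact 95% upper bound of 1.63%.

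Single cells decided several gene levels. In WT replicate 1, 4 cells with at least 10 Lyz2 UMIs held 64 of its 66 F13a1 UMIs and all 32 of its Fn1 UMIs, and Fn1 encodes fibronectin. In WT replicate 3, 1 member of 13928 UMIs held 1529 UMIs of S100a9 and 991 of S100a8, the neutrophil alarmins, along with 126 of Lyz2, 44 of Fn1 and 20 of Cd74. Its neutrophil genes made up 21.4% of its UMIs, and it was among the cells with the highest doublet scores. In knockout replicate 2, 1 cell of 22054 UMIs held 80 Mpo UMIs and 32 of Prtn3, the proteinase 3 gene. In knockout replicate 3, 1 cell of 5062 UMIs held all 10 Siglech UMIs and 15 of Ly6d, 8 of Cox6a2 and 28 of Irf8, all genes of the plasmacytoid list.

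Markers of other cell types were counted with 12 gates, each a set of genes with a minimum number of UMIs. Genes of T, NK or innate lymphoid cells gave 2 UMIs in 54 of 224 members (24.1%), 0 of them in list A, against 18.1% to 45.5% of the remaining cells by library. Granule genes gave 5 UMIs in 61 (27.2%), against 32.9% to 66.8% of the remaining cells. Mitotic genes gave 3 UMIs in 59 (26.3%), but the lists differed. In list B it was 43 of 194 (22.2%), against 33.9% and 29.8% of the remaining cells. In list A it was 16 of 30 (53.3%), against 36.7% to 51.6%. There, members lay above the remaining cells in knockout replicates 1 and 2 and WT replicate 1, and below them in WT replicates 2 and 3. Nkg7, the granule membrane gene of killer cells that early progenitors hold as well, stood at 88.5 CPM in the members of knockout replicate 3 and 130 in WT replicate 4, below 203 and 217 in the remaining cells.

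No gate was called between labels, and none could be on its own: the smallest exact permutation p of 1 gate, 0.0286, comes to 0.343 when adjusted over the 12. With at least 10 cells per library demanded, only knockout replicate 3 and WT replicate 4 remained and no test could be made, so the tests used all 7 libraries, 5 of which held 3 to 9 members. The smallest p was that of Kit or Cd34, at 41.4 ± 17.1% (SD, n = 3) of knockout-labelled and 65.2 ± 14.6% (SD, n = 4) of WT-labelled members. Its two-sided exact permutation p was 0.114, or 0.857 adjusted over the 12 gates. Thinned to 3000 UMIs, its shares were 9.85 ± 17.1% (SD, n = 3) and 12.8 ± 19.02% (SD, n = 4), and p was 1 in the exact permutation test. Granule genes stood at 24.8 ± 4.77% (SD, n = 3) of knockout-labelled and 7.67 ± 15.3% (SD, n = 4) of WT-labelled members (exact permutation p = 0.143). Clec9a or Xcr1 gave 2 UMIs in 20.8 ± 34.0% (SD, n = 3) of knockout-labelled and 20.3 ± 22.0% (SD, n = 4) of WT-labelled members (exact permutation p = 1). Mitotic genes stood at 66.8 ± 41.4% (SD, n = 3) and 33.4 ± 15.6% (SD, n = 4) in the same order (exact permutation p = 0.257).

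Gene levels were then compared between labels on counts summed over the members of each library, with the barcode list in the fit. For the same reason as above all 7 libraries entered. Of 1640 genes tested, edgeR's quasi-likelihood test called 0 (0% of genes; 66 had an unadjusted p below 0.05), and DESeq2 called 0. The groups did not overlap for 63 genes (3.84%). No member of any gene list passed. The rule cut off the levels of Cd74 and the class II genes among the members, so nothing is read from their test between labels. Log2 fold changes are given as knockout minus WT label.

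The 5 genes with the smallest p were Jun, Fosb, Crip1, Klf6 and Plek, all with an edgeR adjusted p of 0.871. Jun, a subunit of the AP-1 transcription factor, stood at 245, 536 and 809 CPM in the members of the knockout-labelled libraries and at 1625, 1905, 1178 and 1273 in those of the WT-labelled ones. Every knockout-labelled library lay below every WT-labelled one, and the log2 fold change was -1.49 (SE 0.38). In the remaining cells Jun stood at 995, 1230 and 702 CPM against 1172, 1287, 1419 and 1037, where the labels overlapped.

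Klf6, an immediate-early zinc finger factor, stood at 61.3, 119 and 71.8 CPM in the members of the knockout-labelled libraries against 216, 235, 230 and 165, again without overlap (log2 fold change -1.20, SE 0.40). Fosb, another AP-1 subunit, stood at 306, 446 and 35.9 against 939, 861, 893 and 103, and Plek, pleckstrin, at 123, 179 and 62.2 against 381, 157, 469 and 150. Crip1, a LIM domain protein, went the other way at 3553, 1845 and 1187 against 1688, 1201, 1049 and 728 CPM. These values rest on 2 to 338 UMIs of the named gene in each knockout-labelled library, except 496 of Crip1 in knockout replicate 3. Klf6 was without overlap in the remaining cells too, so this was not particular to the members. It stood there at 60.7, 63.3 and 69.4 CPM under the knockout label against 73.9, 78.2, 92.3 and 139. For Fosb, Plek and Crip1 the labels overlapped in the remaining cells.

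Whether a label difference in the members differed from that in the remaining cells was tested in 1 fit with the library as a block. Of 13452 genes, 4 (0.0297%) were called by edgeR: Ccr2, Ly6d, Siglech and Fn1. Ccr2 stood at 398, 402 and 108 CPM in the members of the knockout-labelled libraries and 838, 444, 414 and 64.2 in the WT-labelled ones. The remaining cells held 162, 220 and 80.2 against 14.3, 18.8, 8.44 and 34.7. The labels overlapped in the members and not in the remaining cells, and the difference of the log2 fold changes was -3.20 (edgeR adjusted p = 1.3e-09). Without the barcode list in the fit it was -3.66, and the call was lost (edgeR adjusted p = 1.00).

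The other 3 calls rested on few cells. Ly6d and Siglech had 15 and 10 UMIs in the members of knockout replicate 3, all in the 1 cell described above, and 1 and 0 in the other 6 libraries together. Their fitted differences of 7.94 and 15.3 depend on the prior count and are no measure of size. Without knockout replicate 3 they were 1.12 and -0.60, with edgeR adjusted p of 1 for both. Without WT replicate 4, the partner of that library in list B, Ly6d lost its call as well (1.12, edgeR adjusted p = 1). Fn1 had 32 UMIs in 3 cells of WT replicate 1 and 47 in WT replicate 3, of which 44 came from the neutrophil gene cell, and 2 in all other members (fitted difference -12.98, edgeR adjusted p = 0.046). Without WT replicate 3 the fitted Fn1 difference was -12.46 and the call was lost (edgeR adjusted p = 0.617), as it was in 6 more of its 10 alternatives.

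**Figure D5:**
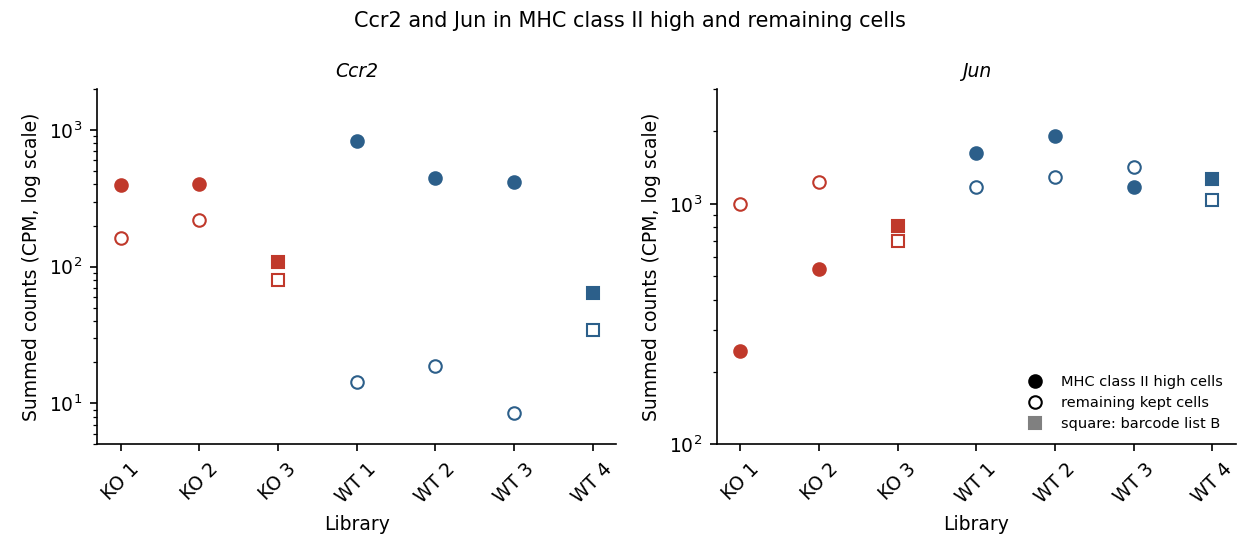
The y axis (log scale) is the CPM of Ccr2 (left) and Jun (right) by library (x axis), in MHC class II high cells (filled) and in the remaining kept cells (open). Red is knockout-labelled, blue WT-labelled, and squares are list B. Open Ccr2 points are at 80.2 or more under the knockout label and at 34.7 or less under the WT label, while filled Jun points are at 809 or less and at 1178 or more.

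Of the other enzymes of the family of B4galt1, the beta-1,4-galactosyltransferases, no UMI of B4galt2 was counted in the members. B4galt3 and B4galt7 were counted only in the members of list B, at 18.1 and 11.6 CPM beside 17.5 and 14.1 in its remaining cells. B4galt4, B4galt5 and B4galt6 stood at 24.1, 13.6 and 15.1 CPM in list B members. Doublets were not removed in the main values: 3 of the 43 strong cells (6.98%) and 20 of the 181 weaker ones (11.0%) were among the highest doublet scores, against 0.939% to 7.09% of all kept cells by library. With the highest scores removed, the share of members differed by -0.425 percentage points between labels (exact permutation p = 0.371), and edgeR called 0 genes.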

How the data were processed

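The files deposited are sparse matrices of UMI counts (genes by barcodes). Per the file headers they come from Cell Ranger 7.0.0, and the submitters' processing notes also name Seurat 4.4.0 and mm10, and the labels' protocols name a 10X Genomics 3′ kit of version 2. No normalization was applied, per the values, which are whole counts. Counts of the 32285 genes were used as deposited. Total UMIs per library ran from 14970791 to 89747946. CPM divides a summed count by the UMIs of the same cells. Scrublet in scanpy 1.11.5 called 0 to 5 doublets per library and is taken not to have worked, so doublets remain. As an alternative, the cells with the highest scores were removed at 0.8% per 1000 barcodes.

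Counts summed per library were fitted with edgeR 4.0.16 in R 4.3.3 (quasi-likelihood, TMM, filterByExpr, robust, Benjamini-Hochberg, threshold 0.05), with DESeq2 1.42.0 as an alternative. The design asked for at least 10 members per library. Only 2 libraries had them, so fits on all 7 libraries were made after the counts had been seen. On simulated counts of the label comparison (1640 genes), edgeR recovered 81% of 200 genes changed by a log2 fold change of 2, with 4 false calls among 166. Shares were compared by two-sided exact permutation over libraries.

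The rule, the gene lists and the gates were chosen with earlier results of these data known. The genes named were the 5 markers, the highest members of each list, the gate genes, the B4galt family, those of largest ratio between members and other cells, and the 5 of smallest p between labels. The ordering of members by class II level, single cells, and genes leading at each level were chosen after their values were seen. Sequences are from RefSeq, and windows for H2-Ab1 and Cd74 were not used here. The values of 1 of the 12 gates and of some members of the lists are not reported here.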

Additional observations from a re-analysis of the deposited data

Results flagged for a closer look

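In the 4 WT-labelled libraries, single libraries stood far from the other 3 in 5 of 21 quantities checked, by the gap to the nearest library over the whole range and a limit for 4 samples. Chance marks about 1 in 20 such groups, and the quantities share cells. B4galt1 in the members was 38.2 CPM in WT replicate 4 against 73.6, 76.2 and 78.3 (gap ratio 0.884). Among WT-labelled libraries, WT replicate 4 alone held Cd209a gate cells (1.33% of members), granule gene cells (30.7%) and T, NK or innate lymphoid gene cells (31.3%), where the others held 0% (gap ratio 1 in each). It was also the only list B library under the WT label. Knockout replicate 3, its list B partner, held 4.55%, 29.5% and 15.9% in the same order. Knockout replicates 1 and 2 held 25% and 20% granule gene cells and 0% of the other kinds. In the remaining cells B4galt1 was lowest in the list B libraries, at 27.5 and 34.8 CPM. WT replicate 3 alone held a Csf1r gate cell (11.1%, 1 of 9 members, gap ratio 1). WT replicates 1 to 3 held 3 to 9 members each, so a share of 0 there allows high values.

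For 4 genes the label difference in the members differed from that in the remaining cells by the test of that difference in edgeR: Ccr2 by -3.20, Ly6d by 7.94, Siglech by 15.3 and Fn1 by -12.98 on the log2 scale. For Ccr2 the labels overlapped in the members and not in the remaining cells. The UMIs behind Ly6d and Siglech came from 1 cell of knockout replicate 3, and 44 of the 47 Fn1 UMIs of WT replicate 3 from 1 cell.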

How the results depend on the processing

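The share of members kept its direction (lower under the knockout label) in all 18 alternatives. It stayed short of the threshold in the 9 that could pass it, and the other 9 have too few splits to reach it. Leaving out each library gave differences from -0.651 to -0.173 percentage points, and exact permutation p over the alternatives ran from 0.114 (10 UMIs of each) to 0.83 (3 UMIs of each). The 12 gates gave 0 calls in 10 alternatives, where no single gate could pass after adjustment. Between labels, 12 of 16 alternatives, DESeq2 among them, called 0 genes. EdgeR called 2 with no gene filter (Fn1 and Prtn3) and 1 (Prtn3, higher under the knockout label) with list A libraries alone. Leaving out each library gave 0 to 1 calls, the 1 being Prtn3 without knockout replicate 3 or without WT replicate 4. Of its 33 UMIs in the members of knockout replicate 2, 32 came from 1 cell. All 4 members of knockout replicate 1 held it (11 UMIs, 337 CPM), against 0, 26.1 and 18.4 CPM in WT replicates 1 to 3. Outside the members Prtn3 ran the same way in list A. Under the WT label the remaining cells had 451, 277 and 166 CPM, and under the knockout label 2763 and 1146. Each of these levels lay above that of the members of the same library. The part of free RNA in the Prtn3 calls was not tested. The replicate block gave 0 calls (125 genes at an unadjusted p below 0.05). Same-numbered libraries deviated together with correlations of 0.27, 0.28 and -0.09, so the numbers were not taken to pair them. The 4 calls of the difference between members and remaining cells became 7 against Irf8-positive cells and 3 to 9 without single libraries, 9 without WT replicate 2. Siglech reversed to -0.60 without knockout replicate 3. Ccr2 kept its call in 9 of 10. A minimum of 20 members per library was not run, since only 2 libraries reach it. With 3 to 9 members in 5 libraries, counting error limits every comparison between labels.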
